A study of Mus musculus with 6 samples.

Results

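RNA that came down with a nonspecific IgG antibody was compared with the starting RNA of the same kind of cells, over 18054 of the 55376 genes in the deposited count table. A gene entered when its counts passed edgeR's filterByExpr at a minimum of 10 (15 in total over libraries). The comparison uses 4 of the 6 libraries of the series, namely IgG RIP 1 and IgG RIP 2 against Input 1 and Input 2. All 6 came from muscle stem cells of C57BL/6 mice aged 3 months, isolated by fluorescence-activated sorting, with no genotype or treatment named beyond the strain. The inputs are labelled as total RNA, and the remaining pair of libraries is an immunoprecipitation with an antibody against CPEB4, an RNA-binding protein that regulates translation through the message tail. Those CPEB4 RIP libraries serve here in the count filter, in the scaling factors, to estimate the spread, and as values set beside the others. With the 4 IgG RIP and input libraries alone, 17432 genes were tested. The animals or pools behind each library are not named, and the spread that the p-values rest on is the one between libraries, which may be technical.

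RNA immunoprecipitation (RIP) captures a protein on antibody-coated beads and reads the RNA that stays attached. A control with IgG, which has no target in the lysate, shows the RNA that binds the beads, the tube or the antibody by itself. Abundant messages, large ribonucleoprotein particles and sticky or structured RNAs are the usual content of such a control, and its comparison with input tells which RNAs an immunoprecipitate can hold without its target protein. The libraries were made with SMART-seq2, which copies whole messages from their poly(A) tail and suits very little RNA. Each library was scaled to its own total, so these values give the makeup of the IgG RIP and not the amount of RNA it recovered.

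Muscle stem cell identity was checked on 10 markers, and all 10 were tested. Their summed level was 62508 and 61238 CPM (counts scaled to the library total with edgeR's trimmed mean of M-values) in IgG RIP 1 and 2, and 46159 and 47440 CPM in Input 1 and 2. Most of that sum is Sdc4, the syndecan that is among the most abundant messages of these cells, at 56836 and 52783 CPM in IgG RIP and 41597 and 41846 CPM in input. Pax7, the transcription factor that defines the lineage, stood at 189 and 282 CPM in IgG RIP and 151 and 174 CPM in input. Lists for other cells of muscle summed to far less. Leukocyte markers gave 60.8 and 92.5 CPM in IgG RIP against 49.6 and 71.6 CPM in input, and erythroid markers 86.8 and 147 CPM against 109 and 179 CPM. Fibro-adipogenic markers gave 1639 and 2119 CPM in IgG RIP against 1327 and 1452 CPM in input, with Col3a1 and Gsn, which stem cells can also express, as the largest members. Pericyte and smooth muscle markers gave 1182 and 1515 CPM against 911 and 1042 CPM, and myofibre genes 384 and 491 CPM against 381 and 468 CPM. In bulk RNA a smaller number of cells of a type and less RNA per cell cannot be told apart, and the part of these sums in the results was not tested.

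The IgG RIP libraries held 9018323 and 14225502 assigned counts, and the inputs 16314360 and 12426827. Thinned to 9018323 counts, IgG RIP 1 detected 30953 genes and IgG RIP 2 detected 21795, against 35742 and 34157 in the inputs. The 10 most counted genes took 15.5% and 14.5% of the counts in IgG RIP and 13.5% and 12.9% in input. On log CPM over all genes tested, the IgG RIP libraries correlated with each other at 0.873, which is lower than either did with either input (0.895 to 0.939), lower than the inputs with each other (0.975) and lower than the CPEB4 RIP libraries with each other (0.981). These correlations run across genes, which are not independent replicates. The IgG RIP libraries were therefore described one by one as well as together.

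With IgG RIP set against input, edgeR's quasi-likelihood test called no gene at a Benjamini-Hochberg adjusted p of 0.05, in either direction (0% higher and 0% lower of 18054). Without adjustment, 1372 genes were higher in IgG RIP at a p under 0.05 (7.6%) and 1178 were lower (6.52%). The smallest adjusted p was 0.0867, for CT010467.1, a locus listed under a clone name, at 627 and 718 CPM in IgG RIP against 162 and 115 CPM in input. DESeq2's Wald test on the same counts called 427 genes higher (4.42% of the 9653 it gave an adjusted p) and 279 lower (2.89%). The edgeR count rested on both IgG RIP libraries. Without IgG RIP 1 it was 2301 higher and 4356 lower, and without IgG RIP 2 it was 607 higher and 1132 lower, with the library left in the group assumed to vary like those of the other groups.

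Counted without a test, 3859 genes (21.4%) had both IgG RIP libraries above both inputs and 3729 (20.7%) had both below. Among the 7258 genes with a mean of at least 10 CPM these were 2050 (28.2%) and 1434 (19.8%), and among the 1670 with at least 100 CPM they were 571 (34.2%) and 310 (18.6%). The direction of that split depends on the scaling. With library size alone, 2958 genes were above and 4750 below, and with trimmed-mean factors taken from genes of at least 10 CPM, 3255 were above and 4434 below. The median log2 fold change of all genes was 0.05 under the trimmed mean, 0.02 under DESeq2's size factors and -0.08 under library size alone, and single-gene values below are to be read against that shift. With 2 libraries against 2, an exact permutation test of any single value cannot give a two-sided p below 0.333.

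The genes described singly are taken from the 12 with the smallest p in each direction among named genes of at least 10 CPM whose groups did not overlap. None of them passed the edgeR threshold, where their adjusted p lay between 0.106 and 0.157. All 12 in each direction passed DESeq2, and all kept their groups apart in the same direction under the other scalings. The genes were chosen from the same counts for a small p and separated groups, so these results are not further support. In each CPEB4 RIP library, all 12 higher genes were also above both inputs, and 11 of the 12 lower genes were below both. Both comparisons share the input libraries, and the genes were chosen for standing apart from those inputs, so this agreement was favoured in advance. The same share over all genes tested was not counted.

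Among secreted and signalling proteins, Chrdl2 had the smallest p of the named genes that were higher in IgG RIP. Chrdl2 encodes a secreted chordin-like protein that binds bone morphogenetic proteins and is a stem cell marker in this tissue (chr7:100006404-100034728, GRCm38). It stood at 552 and 630 CPM in the IgG RIP libraries and 236 and 240 CPM in the inputs. Both IgG RIP libraries were more than 2 times either input, and the input values were nearly equal. The log2 fold change was 1.31 ± 0.14 (SE) with an adjusted p of 0.106 in edgeR, and the CPEB4 RIP libraries stood at 444 and 428 CPM. The SE and adjusted p here and below pool the spread of the CPEB4 RIP libraries with that of the others. With only the 4 IgG RIP and input libraries, edgeR gave Chrdl2 a log2 fold change of 1.23 and an adjusted p of 0.493. Irs2, the adaptor that carries insulin and IGF receptor signals, was at 65.0 and 64.9 CPM in IgG RIP and 23.9 and 20.1 CPM in input, so that its IgG RIP values were closer to each other than the input values were.

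Several of the 12 encode nuclear proteins. Cebpd, a transcription factor of the C/EBP family, stood at 295 and 466 CPM in IgG RIP and 69.8 and 111 CPM in input, and its log2 fold change of 2.07 ± 0.29 was the widest of the 12. Srrm2, the large scaffold protein of nuclear speckles, stood at 439 and 643 CPM against 184 and 169 CPM, a log2 fold change of 1.62 ± 0.21. Both genes were higher in IgG RIP 2 than in IgG RIP 1, yet neither group overlapped the inputs. Nr4a3, an orphan nuclear receptor induced as an immediate early gene, was at 61.3 and 69.6 CPM in IgG RIP and at 25.5 CPM in each input. Cited2, a coregulator that binds CBP and p300, was at 64.4 and 66.6 CPM against 25.8 and 25.1 CPM. In both genes the input values were almost equal. Ier5, a further immediate early gene, had a log2 fold change of 1.18 ± 0.16, and Fbl, the nucleolar methyltransferase fibrillarin, one of 1.11 ± 0.16.

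A further 3 belong to the mitochondrion. Lars2, the mitochondrial leucyl-tRNA synthetase, stood at 154 and 190 CPM in IgG RIP and 54.8 and 41.1 CPM in input. Its log2 fold change was 1.84 ± 0.21, and the CPEB4 RIP libraries were higher still, at 501 and 416 CPM. mt-Nd5, a subunit of respiratory complex I encoded by the mitochondrial genome, stood at 1124 and 1438 CPM against 508 and 571 CPM. Acot2, a mitochondrial acyl-CoA thioesterase, had a log2 fold change of 1.22 ± 0.16. Reads of Lars2 and CT010467.1 can match other repeated loci, and the sources used here do not say how such reads were assigned.

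**Figure D1:**
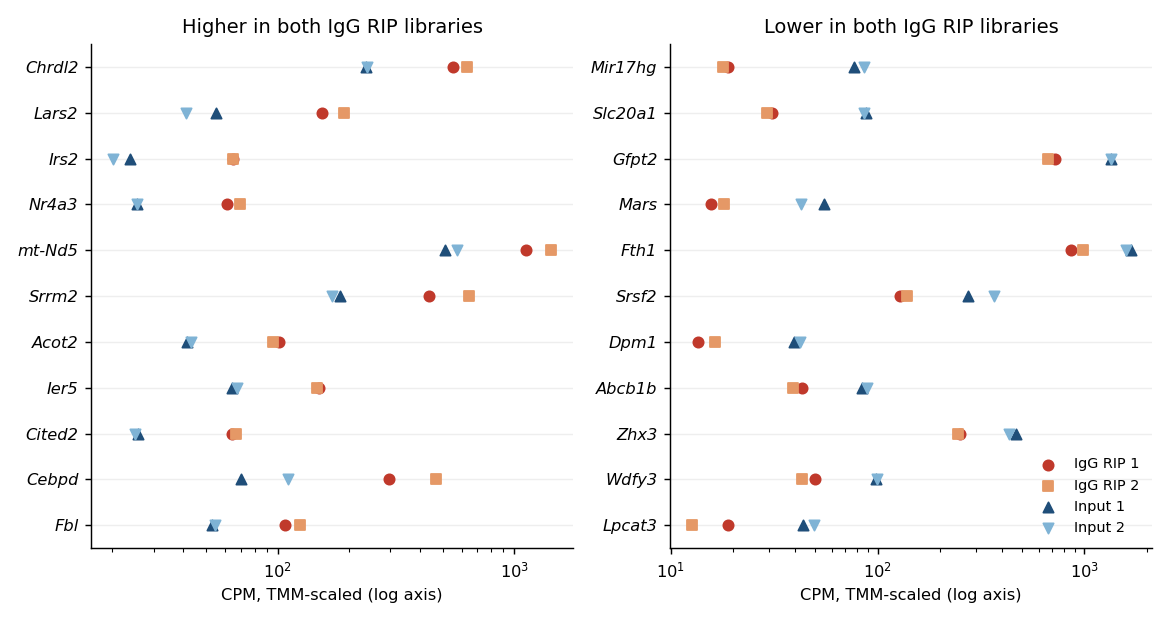
CPM on a log axis in each IgG RIP library (red circle, orange square) and each input library (blue triangles), for 11 of the 12 genes with the smallest p in each direction; each point is 1 library. In the left panel both IgG RIP points lie to the right of both inputs (Chrdl2 552 and 630 CPM against 236 and 240 CPM), and in the right panel both lie to the left (Mir17hg 18.9 and 17.8 CPM against 76.9 and 86.0 CPM).

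Mir17hg had the smallest p of all named genes that were lower in IgG RIP. It is the noncoding host transcript of the miR-17-92 cluster, from which the nuclear enzyme Drosha cuts hairpins that become mature microRNAs. RefSeq places the host gene at chr14:115044390-115046728 on GRCm38 and 6 hairpins between 115043671 and 115044506 on the same chromosome, of which 2 overlap the RefSeq host model. The counts are those of the host RNA, since mature microRNAs have no poly(A) tail and were not measured. The main mature product of each hairpin, from RefSeq on GRCm38.p6, is shown because the cluster is what this transcript is known for, with the seed (bases 2 to 8) in capitals.

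mmu-miR-17-5p: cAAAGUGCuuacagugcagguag

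mmu-miR-20a-5p: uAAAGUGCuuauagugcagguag

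mmu-miR-18a-5p: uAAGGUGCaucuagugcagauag

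mmu-miR-19a-3p: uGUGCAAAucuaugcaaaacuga

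mmu-miR-19b-3p: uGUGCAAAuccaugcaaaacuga

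mmu-miR-92a-3p: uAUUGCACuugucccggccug

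The 6 products carry 4 distinct seeds, with miR-17 and miR-20a sharing a seed and miR-19a and miR-19b sharing another. Mir17hg stood at 18.9 and 17.8 CPM in IgG RIP and 76.9 and 86.0 CPM in input. The values within each group were close, and the IgG RIP mean was 18.3 ± 0.743 CPM against 81.5 ± 6.47 CPM in input (SD, n = 2). The log2 fold change was -2.15 ± 0.23 with an adjusted p of 0.106 in edgeR, or 0.493 with only the 4 IgG RIP and input libraries. The CPEB4 RIP libraries were lower again, at 4.14 and 5.83 CPM.

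Membrane proteins made up part of the other lower genes. Slc20a1, a sodium-phosphate cotransporter, stood at 30.8 and 29.2 CPM in IgG RIP and 88.1 and 86.4 CPM in input. Its log2 fold change was -1.54 ± 0.17, and each pair agreed to within 2 CPM. Abcb1b, a drug efflux pump, had a log2 fold change of -1.07 ± 0.17. Lpcat3, which remodels membrane phospholipids, was at 18.9 and 12.7 CPM against 43.5 and 49.3 CPM. Metabolic and biosynthetic enzymes were a further part. Gfpt2, which opens the hexosamine pathway, stood at 721 and 670.1 CPM in IgG RIP and 1348 and 1338 CPM in input, a log2 fold change of -0.95 ± 0.13. Mars, the methionyl-tRNA synthetase, was at 15.7 and 18.1 CPM against 55.1 and 42.6 CPM, and Dpm1, which makes the mannose donor for glycoproteins, at 13.5 and 16.3 CPM against 39.7 and 42.3 CPM. Wdfy3, a scaffold of selective autophagy, and Zhx3, a zinc finger and homeobox protein, had log2 fold changes of -1.09 ± 0.17 and -0.86 ± 0.14.

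The remaining pair were Srsf2 and Fth1. Srsf2, an SR protein that guides splice site choice, stood at 128 and 138 CPM in IgG RIP and 272 and 367 CPM in input, while the speckle protein gene Srrm2 was on the other side. Fth1, the ferritin heavy chain, stood at 862 and 989 CPM in IgG RIP and 1669 and 1595 CPM in input. Its log2 fold change in IgG RIP was -0.82 ± 0.13, and the CPEB4 RIP libraries stood at 3869 and 3882 CPM, above both inputs. The comparison of CPEB4 RIP with input shares the input libraries with this one, and the difference between them was not tested here.

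The 6 most abundant messages of the input were not recovered alike, with Actb, Sdc4 and Gpx3 above both inputs, Hspa5 below and Gal and Hspa8 overlapping. Actb, cytoplasmic actin, stood at 24272 and 33076 CPM in IgG RIP and 12872 and 14864 CPM in input. The groups did not overlap, and the log2 fold change was 1.05 ± 0.17. Its adjusted p in edgeR was 0.162, or 0.493 with only the 4 IgG RIP and input libraries. Sdc4 had a log2 fold change of 0.39 ± 0.10, Gpx3, a secreted glutathione peroxidase, 0.27 ± 0.12, and Gal, the neuropeptide galanin, 0.24 ± 0.18 with overlapping groups. Hspa8, the constitutive HSC70 chaperone, stood at 9531 and 8132 CPM in IgG RIP around input values of 9401 and 9070 CPM. Hspa5, the endoplasmic reticulum chaperone BiP, was at 12146 and 12674 CPM in IgG RIP and 17868 and 16772 CPM in input, a log2 fold change of -0.48 ± 0.13. Cpeb4 itself stood at 10.98 CPM in IgG RIP 1 and 30.7 CPM in IgG RIP 2 around inputs of 13.2 and 13.6 CPM, so that 1 IgG RIP library was below both inputs and the other above.

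Gene lists were described by how many members had both IgG RIP libraries on the same side of both inputs, to be read against 21.4% above and 20.7% below over all genes tested, or 28.2% and 19.8% over genes of at least 10 CPM. No member of any list passed the edgeR threshold. Of 82 cytosolic ribosomal protein genes, 67 were above (81.7%) and 3 below (3.66%), with a median log2 fold change of 0.40. Under the other scalings 57 to 64 were above, and the median was 0.23 without IgG RIP 2. The list ran from Rplp0, a protein of the ribosomal stalk, at 997 and 991 CPM in IgG RIP against 1424 and 1409 CPM in input, to Rpl7 at 448 and 588 CPM against 246 and 305 CPM. Rplp0 was thus clearly on the opposite side from its list, at a log2 fold change of -0.51 ± 0.11, while Rpl4, a core protein of the large subunit, was at 0.39 ± 0.15. Ribosomal protein genes have many processed pseudogenes, so their counts depend on how reads with several matches were assigned. Genes of at least 10 CPM had a median log2 ratio to input of -0.01 in IgG RIP 1 and 0.16 in IgG RIP 2. The ribosomal protein list's median was 0.30 and 0.51. In the CPEB4 RIP libraries, set against the same inputs, it was 1.42 and 1.52.

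Other lists of the translation and RNA processing machinery were mixed, and no test compared the lists. Of 52 translation factors, 30 were above and 2 below, with a median of 0.31 (0.12 without IgG RIP 2, 0.15 without Input 1). Eef1a1, the factor that delivers aminoacyl-tRNA, stood at 3049 and 3241 CPM in IgG RIP and 1986 and 2384 CPM in input. Eif2s2, the beta subunit of the initiation factor that carries the initiator tRNA, had the widest value of the list at 1.09 ± 0.29, with IgG RIP 2 at 1705 CPM and IgG RIP 1 at 976 CPM. Of 59 splicing factors and hnRNPs, 35 were above and 2 below, with a median of 0.35 (0.12 without IgG RIP 2, 0.17 without Input 1). The most abundant of them did not stand apart, with Hnrnpk at 1451 and 1653 CPM in IgG RIP against 1290 and 1568 CPM in input, and the list's ends were the Srsf2 and Srrm2 described above. Both lists had a larger median in IgG RIP 2 (0.42 and 0.39) than in IgG RIP 1 (0.19 and 0.18). Genes of at least 10 CPM differed the same way, with medians of 0.16 in IgG RIP 2 and -0.01 in IgG RIP 1. Those of at least 100 CPM had 0.20 and -0.01. Proteins of the mitochondrial ribosome had 19 of 80 above and 13 below, with a median of 0.07, and turned to 8 above and 22 below under library size alone.

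Collagens and secreted matrix genes, which are translated at the endoplasmic reticulum, had 20 of 31 above and 1 below, with a median of 0.47. Col3a1 stood at 523 and 555 CPM in IgG RIP and 365 and 345 CPM in input. Sparc, a collagen-binding matrix protein, was at 1643 and 1895 CPM against 1316 and 1328 CPM. Lama5, a laminin chain of basement membrane, had the widest value at 1.53 ± 0.27. Marker sums of matrix-producing cells were also higher in IgG RIP, at 1639 and 2119 CPM against 1327 and 1452 CPM for fibro-adipogenic cells, whose list also holds Col3a1 (2 of 12 above and 2 below), and at 1182 and 1515 CPM against 911 and 1042 CPM for pericytes and smooth muscle (4 of 10 above and 0 below). Their part in the matrix values was not tested. The matrix medians were similar in the libraries, 0.45 in IgG RIP 1 and 0.52 in IgG RIP 2, and 15 to 20 members were above under the other scalings. Chaperones and stress genes of the same organelle went the other way, with 4 of 25 above and 10 below and a median of -0.22 (-0.46 without Input 1). Herpud1, a factor of endoplasmic reticulum-associated degradation, stood at 2241 and 1862 CPM in IgG RIP and 2783 and 2755 CPM in input, beside the Hspa5 values above. Of 23 cytosolic heat shock genes, 9 were above and 1 below, but 3 to 7 were below under the other scalings. Hsp90ab1 was at 7376 and 6348 CPM in IgG RIP against 5242 and 4779.9 CPM in input, and Hspa1b, the inducible HSP70, at 134 and 97.5 CPM against 45.5 and 33.5 CPM.

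Immediate early genes, which cells switch on within minutes of isolation or stimulation, had 17 of 26 above and 4 below, with a median of 0.40 (0.08 without Input 2, 0.24 without IgG RIP 1). Under the other scalings 8 to 14 were above and 4 below. Junb, an AP-1 subunit, stood at 404 and 500.3 CPM in IgG RIP and 234 and 145 CPM in input. Egr1, a zinc finger transcription factor, was at 3563 and 3105 CPM against 2949 and 1784 CPM, so its inputs differed more than its IgG RIP values did. Dusp1, a phosphatase of MAP kinases, was below instead, at 2534 and 2307 CPM in IgG RIP against 3623 and 3620 CPM in input. The list thus held members on both sides with separated groups.

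Genes of the stem cell program lay on both sides of input. Of the 10 lineage markers, 6 were above and 2 below, with a median of 0.44 (0.20 without IgG RIP 2, 0.22 without IgG RIP 1), and 4 or 5 were above under the other scalings. The highest value of that list was Chrdl2, described above. Of 19 transcription factors of the lineage, 5 were above and 1 below, with a median of 0.26 that was -0.06 without IgG RIP 1 and 0.01 without Input 2. Myod1 stood at 930.1 and 1025 CPM in IgG RIP against 851 and 750.5 CPM in input. Myf5 stood at 2179 and 4794 CPM against 1172 and 2298 CPM, where the higher input exceeded the lower IgG RIP value and the groups overlapped. Of 24 surface genes, 9 were above and 6 below, with a median of -0.03. Vcam1, an adhesion receptor often used to sort these cells, was at 1332 and 1301 CPM in IgG RIP and 1643 and 1614 CPM in input, and Calcr, the calcitonin receptor of quiescent cells, at 187 and 120 CPM against 257 and 228 CPM. Nuclear-encoded respiratory chain subunits had 30 of 76 above and 12 below, proteasome subunits 13 of 38 above and 4 below, and cell cycle genes 4 of 34 above and 8 below. Under library size alone the first 2 lists were nearly balanced, at 22 above and 20 below and at 11 above and 12 below.

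**Figure D2:**
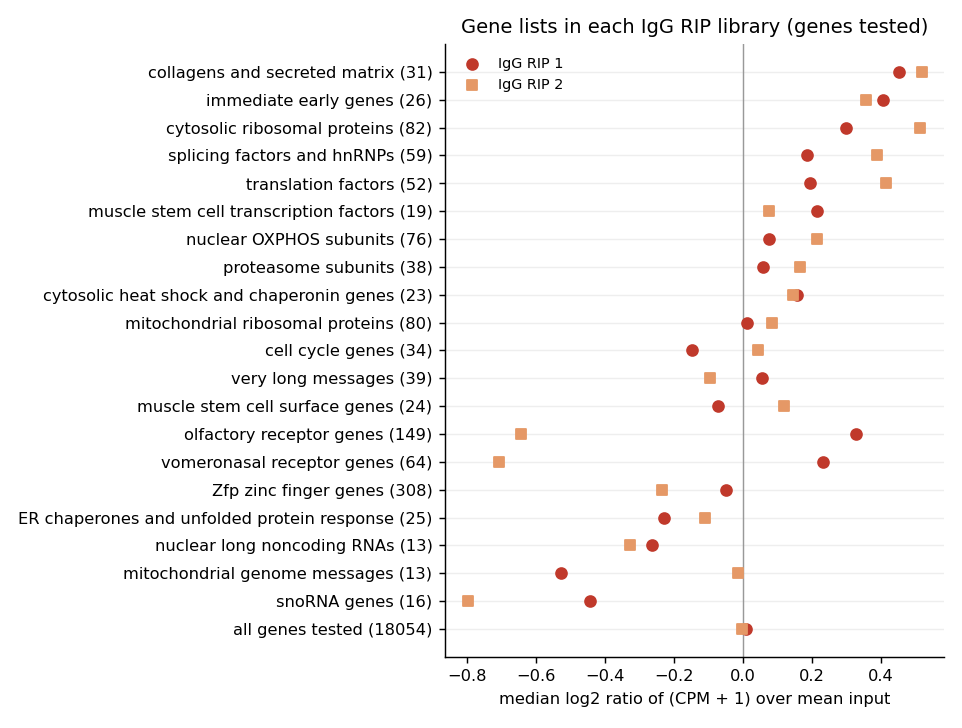
Median log2 ratio of (CPM + 1) over the mean of the inputs for each gene list, in IgG RIP 1 (red circle) and IgG RIP 2 (orange square), with the number of genes tested in brackets. Ribosomal protein genes sit at 0.30 and 0.51 and snoRNA genes at -0.44 and -0.80. The olfactory and vomeronasal receptor lists sit on opposite sides of 0 in the 2 libraries. Few members of the snoRNA and receptor lists passed the count filter, and their medians rest partly on it. All genes sit at 0.01 and 0.00, and genes of at least 10 CPM, which are not drawn, at -0.01 and 0.16.

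Messages of the mitochondrial genome did not move as a block, although they are cut from a few long polycistronic transcripts. Of 13, mt-Nd5 and mt-Nd6 had both IgG RIP libraries above both inputs and mt-Atp6, mt-Cytb and mt-Nd1 had both below, and the other 8 overlapped. mt-Nd6, the only protein gene on the light strand, stood at 478 and 839 CPM in IgG RIP and 188 and 233 CPM in input, a log2 fold change of 1.64 ± 0.26. It lies against the end of mt-Nd5 on the opposite strand, and no source used here gives the strand setting of the counting, so reads of the neighbours cannot be told apart. mt-Cytb, the cytochrome b of complex III, was at 4331 and 6178 CPM in IgG RIP and 6246 and 8333 CPM in input. mt-Nd1 stood at 806 and 1028 CPM against 1106 and 1270 CPM, and mt-Atp6, a subunit of ATP synthase, at 16.4 and 31.9 CPM against 65.1 and 40.7 CPM. The list's median log2 ratio to the mean input was -0.53 in IgG RIP 1 and -0.01 in IgG RIP 2. These messages took 0.92% and 1.19% of the counts in IgG RIP 1 and 2, and 1.18% and 1.43% in Input 1 and 2. Their share thus differed between the inputs as well as between the IgG RIP libraries. The mitochondrial ribosomal RNA mt-Rnr2 stood at 477 and 864 CPM in IgG RIP and 794 and 1032 CPM in input.

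**Figure D3:**
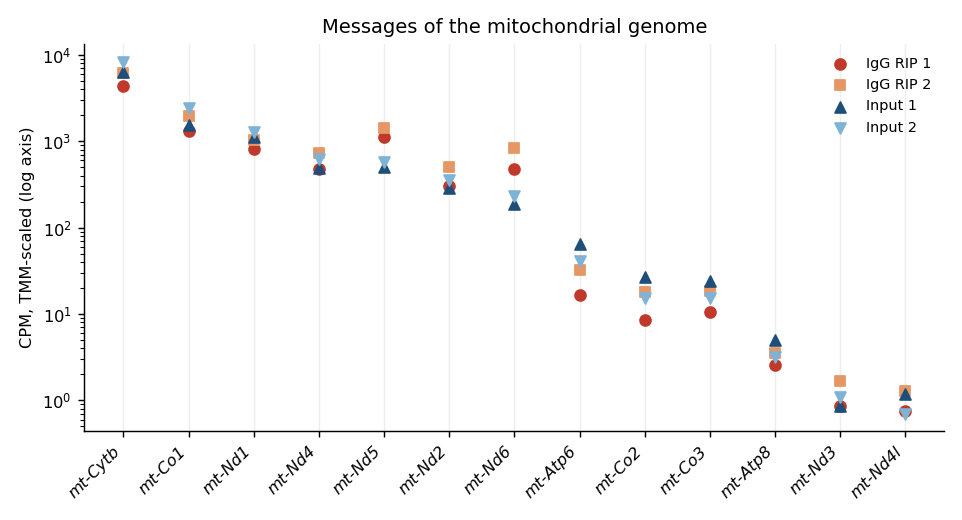
CPM on a log axis of the 13 messages of the mitochondrial genome in the 2 IgG RIP and 2 input libraries, ordered by mean input CPM; each point is 1 library. The IgG RIP points of mt-Nd5 (1124 and 1438 CPM) and mt-Nd6 (478 and 839 CPM) lie above both inputs, those of mt-Cytb, mt-Nd1 and mt-Atp6 lie below, and the others mix.

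Long noncoding RNAs had a larger share of genes below the inputs than protein-coding genes had in these libraries, a difference that was not tested. Among genes with a mean input of at least 10 CPM, 31 of 71 that RefSeq types as lncRNA had both IgG RIP libraries below both inputs (43.7%) and 7 had both above (9.86%). Among 6747 protein-coding genes these shares were 21.3% and 26.7%. Under DESeq2's size factors 43.7% of the lncRNAs and 23.9% of the protein-coding genes were below, and with factors from genes of at least 10 CPM 49.3% and 29.0%. The lncRNA median log2 ratio was -0.22 in IgG RIP 1 and -0.38 in IgG RIP 2, so both libraries lay on the same side. Meg3, an imprinted nuclear transcript, stood at 173 and 176 CPM in IgG RIP and 370.3 and 256 CPM in input. Malat1, the abundant transcript of nuclear speckles, was on the other side at 4329 and 4881 CPM against 3108 and 3537 CPM, and Neat1, which builds paraspeckles, overlapped at 118 and 203 CPM around 186 and 167 CPM. Nuclear noncoding RNAs therefore included members above, below and among the inputs, and the list of 13 had 2 above and 4 below.

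Hosts of small nucleolar RNAs and the snoRNA genes themselves were also described. Snhg6 stood at 59.2 and 35.3 CPM in IgG RIP and 107 and 149 CPM in input, a log2 fold change of -1.44 ± 0.28, while Gas5, the most abundant host, overlapped at 388 and 316 CPM against 399 and 384 CPM. Of 16 snoRNA genes tested, 9 were below and 1 above, and 8 to 10 were below under the other scalings. Their median log2 fold change in edgeR was -1.14 (-2.34 without IgG RIP 1). On the ratio of (CPM + 1) to input, which damps low counts, the median was -0.44 in IgG RIP 1 and -0.80 in IgG RIP 2. Only these 16 of the 138 in the table passed the count filter. Members high in the inputs pass it more readily, so the medians and the number below rest partly on the filter. Over all 138, snoRNA genes took 0.0075% and 0.0071% of the counts in the inputs and 0.0039% and 0.0021% in IgG RIP. Snora31, an H/ACA guide RNA, was at 5.12 and 0.906 CPM in IgG RIP and 17.5 and 24.2 CPM in input. snoRNAs have no poly(A) tail and lie in introns of other genes, so their counts can include intronic reads of the host. At equal depth, 35 and 22 of the 138 snoRNA genes in the table had a count in IgG RIP 1 and 2, against 47 and 45 in the inputs. The CPEB4 RIP libraries had 22 and 26. Pseudogenes showed the libraries apart, with a median log2 ratio of -0.01 in IgG RIP 1 and 0.45 in IgG RIP 2 over 117 genes. Over all genes with a mean input of at least 10 CPM it was -0.03 and 0.12.

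Length was read from the ratio of the deposited counts to FPKM, set to bases on the ribosomal RNA mt-Rnr2. Genes with a mean input of at least 10 CPM were cut into 5 classes of equal size, and in the shortest class (108 to 2508 bases), 31.5% had both IgG RIP libraries above both inputs and 16.7% both below. In the 4 longer classes 22.5% to 26.4% were above and 20.9% to 24.0% below, and the shortest class had the largest share above under every scaling tried. Medians were 0.02 in IgG RIP 1 and 0.17 in IgG RIP 2 in the shortest class and -0.03 and 0.15 in the longest, so the difference between classes was small beside the quartiles within a class, which lay at -0.23 and 0.27 in IgG RIP 1 for the shortest. A list of 39 very long messages, such as Ahnak and Birc6, had 12 above and 9 below and a median of -0.01.

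Recovery varied with the level of a gene in the input in IgG RIP 2, and at the lowest levels in CPEB4 RIP as well. Among genes of 1 to 3 CPM in input, IgG RIP 2 had a median log2 ratio of -0.39 with quartiles of -1.09 and 0.38, and 18.1% of the 4242 genes were at 0 counts there. In the same genes IgG RIP 1 had a median of -0.02 and 2.95% at 0. From 3 to 10 CPM, 3.21% were at 0 in IgG RIP 2 and 0.196% in IgG RIP 1. At 300 CPM and over, medians were -0.03 in IgG RIP 1 and 0.16 in IgG RIP 2. Under the trimmed mean, the IgG RIP 2 median thus went from below input at 1 to 3 CPM to 0.04 at 3 to 10 CPM and 0.16 at 300 CPM and over. Each value rests on 1 library's counting, and no test was run. The side of input at high levels depends on the scaling. At 300 CPM and over, 33.6% of genes had both IgG RIP libraries above both inputs and 21.7% both below. Under library size alone these shares were 26.6% and 37.4%. CPEB4 RIP libraries had medians of -0.20 and -0.30 in the class of 1 to 3 CPM and of 0.10 and 0.04 from 3 to 10 CPM, with 1.58% and 2.59% of the lowest class at 0. At 300 CPM and over their medians were -0.12 and -0.02. The inputs differed with level too, with a median of Input 1 over Input 2 of 0.11 at 1 to 3 CPM and -0.20 at 300 CPM and over.

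**Figure D4:**
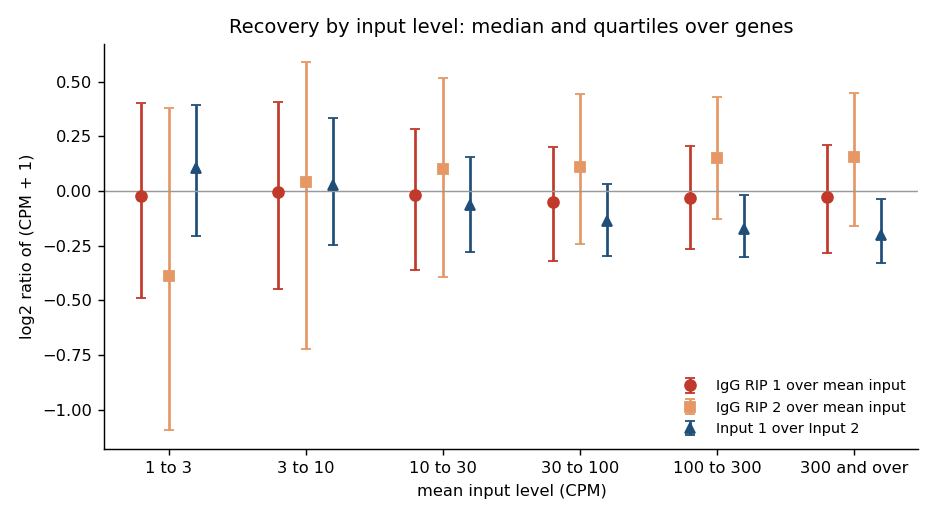
Log2 ratio of (CPM + 1) by class of mean input CPM, with medians as points and quartiles over genes as bars, for IgG RIP 1 and IgG RIP 2 over the mean input and for Input 1 over Input 2. All values are scaled by the trimmed mean. IgG RIP 1 stays between -0.05 and 0.00, while IgG RIP 2 goes from -0.39 at 1 to 3 CPM to 0.16 at 300 CPM and over. The median of Input 1 over Input 2 goes from 0.11 to -0.20.

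Loss of single genes was counted among the 12628 genes with at least 20 counts in both inputs. Of these, 38 (0.301%) were at 0 in IgG RIP 1 and 388 (3.07%) in IgG RIP 2, although IgG RIP 2 was the deeper library. Each CPEB4 RIP library had 15 (0.119%). The genes at 0 in both IgG RIP libraries numbered 13, which is 34.2% of those lost in IgG RIP 1 and 3.35% of those lost in IgG RIP 2, and all 13 had counts in both CPEB4 RIP libraries. The best supported was Tmem206, a proton-activated chloride channel, with 0 counts in each IgG RIP library and 44 and 59 in the inputs. Set against a floor of 3 counts over the pooled IgG RIP libraries it was at least 27.8-fold lower. That floor covers counting error and not the spread between libraries, and these genes were chosen for their 0 counts. Lipt1, a lipoyltransferase of mitochondria, had 43 and 27 input counts and was at least 18.9-fold lower, and Gm15559, a predicted gene, at least 24.8-fold lower. The others were Ttll3, Capn12, Gpbar1, Hnmt, Sbspon, Magix, Gm11510, Gm26490, 2700068H02Rik and A630052C17Rik, with 20 to 55 counts in each input over the 13 except the 59 of Tmem206. Genes at so few counts show counting limits as well as recovery, and with at least 50 counts in both inputs the numbers at 0 were 0 in IgG RIP 1 and 64 in IgG RIP 2.

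Meis3 and Tfpi, chosen after their values were seen, show the same at higher counts. Meis3, a homeobox protein, had 2 and 0 counts in the IgG RIP libraries, against 140 and 96 in the inputs. It stood at 0.213 and 0 CPM in IgG RIP, 7.61 and 7.50 CPM in input and 13.3 and 13.6 CPM in CPEB4 RIP. Tfpi, the inhibitor of tissue factor, had the highest input level of any gene at 0 in IgG RIP 2, with 0 counts there, 115 in IgG RIP 1 and 248 and 209 in the inputs. Meis3 was thus near 0 in both IgG RIP libraries and Tfpi in 1 of them. Gain of genes not seen in the inputs was rare. Of 12500 genes at 0 in both inputs, 1 had at least 20 counts in IgG RIP 1, 9 in IgG RIP 2 and 0 in both.

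Large gaps between the IgG RIP libraries were found in the other direction as well. With at least 10 CPM in one and at most 0.5 CPM in the other, 20 genes were high in IgG RIP 1 and near 0 in IgG RIP 2 and 4 the reverse, and the same rule took 0 genes between the inputs and 0 between the CPEB4 RIP libraries. Kiz, a centrosomal protein, stood at 22.2 CPM in IgG RIP 1 and 0.453 CPM in IgG RIP 2, with inputs of 17.6 and 18.1 CPM. Acss2, the cytosolic acetyl-CoA synthetase, stood at 21.2 and 0.0755 CPM with inputs of 10.8 and 7.73 CPM. Ptcd2, Prickle2 and Rtel1 followed, with 14.8, 13.97 and 13.9 CPM in IgG RIP 1. In these genes IgG RIP 1 was near or above the inputs, and IgG RIP 2 held from 0 to 6 counts. In the reverse direction, Eif5a2, an isoform of the hypusinated translation factor, was at 0.320 CPM in IgG RIP 1 and 13.5 CPM in IgG RIP 2 with inputs of 4.02 and 3.90 CPM, and Zfp101, Fam122b and Tbc1d31 were at 10.9, 10.6 and 10.1 CPM in IgG RIP 2.

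Among genes with a mean of at least 50 CPM the gaps were smaller. Igf1, the insulin-like growth factor, stood at 114 CPM in IgG RIP 1 and 296 CPM in IgG RIP 2 and inputs of 106 and 189 CPM. Bmpr1a, a receptor of bone morphogenetic proteins, was at 51.2 and 125 CPM with inputs of 55.6 and 66.2 CPM, and Arid1a, a subunit of the SWI/SNF remodelling complex, at 38.0 and 92.6 CPM with inputs of 61.0 and 62.0 CPM. On the other side, Clu, the secreted chaperone clusterin, was at 123 and 51.9 CPM with inputs of 142 and 92.8 CPM, and Atp7a, a copper transporter, at 52.0 and 20.99 CPM with inputs of 80.9 and 60.5 CPM. Gm10800, a predicted locus of repeated sequence, stood at 1664 and 819 CPM in IgG RIP and 1315 and 2085 CPM in input. Apart from Gm10800 these genes were chosen for the gap between the IgG RIP libraries, so its size is a description.

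Counted per library at 2-fold or more against each of the inputs, on CPM + 1, IgG RIP 1 had 433 genes above (2.4%) and 573 below (3.17%). IgG RIP 2 had 902 above (5.0%) and 1751 below (9.7%). Input 1 against Input 2 gave 170 above and 113 below. Only 88 genes were 2-fold above both inputs in both IgG RIP libraries and 191 were 2-fold below in both. A further 44 were 2-fold above in IgG RIP 1 and 2-fold below in IgG RIP 2, and 16 the reverse. Those counts depend on the number added to each value, and with 5 CPM in place of 1 CPM IgG RIP 1 had 30 above and 60 below and IgG RIP 2 had 237 and 253. CPEB4 RIP libraries counted the same way had 1204 and 1304 above (6.67% and 7.22%) and 860 and 1012 below (4.76% and 5.61%).

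Receptor families of sensory neurons also differed between the IgG RIP libraries. Olfactory and vomeronasal receptor genes are known mainly from those neurons, and here their counts come in small numbers spread over many genes. At equal depth, 815 of the 1405 olfactory receptor genes in the table had a count in IgG RIP 1 and 308 in IgG RIP 2, against 1046 and 981 in the inputs and 501 and 304 in CPEB4 RIP. Vomeronasal receptor genes gave 214 and 104 of 331 in IgG RIP, 241 and 230 in input and 141 and 95 in CPEB4 RIP. Over the 149 olfactory receptor genes tested, the median log2 ratio to input was 0.33 in IgG RIP 1 and -0.64 in IgG RIP 2. Over 64 vomeronasal receptor genes it was 0.23 and -0.71. Only these members passed the count filter. They enter through the libraries where their counts are high, so the opposite signs rest partly on the filter. Over all 1405 members, the olfactory list took 0.0597% of the IgG RIP 1 counts and 0.0188% of the IgG RIP 2 counts. Input 1 had 0.0510% and Input 2 had 0.0418%. For all 331 vomeronasal members the shares were 0.0193% and 0.0073%, beside input shares of 0.0156% and 0.0125%. At equal depth, IgG RIP 1 held fewer of these genes than the inputs but more than IgG RIP 2, which held about as many as CPEB4 RIP 2. Zinc finger genes with Zfp symbols, which are expressed at low levels in most cells, gave 343 and 286 of 374 in IgG RIP and 352 and 359 in input, and of 308 tested 54 were above and 75 below.

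**Figure D5:**
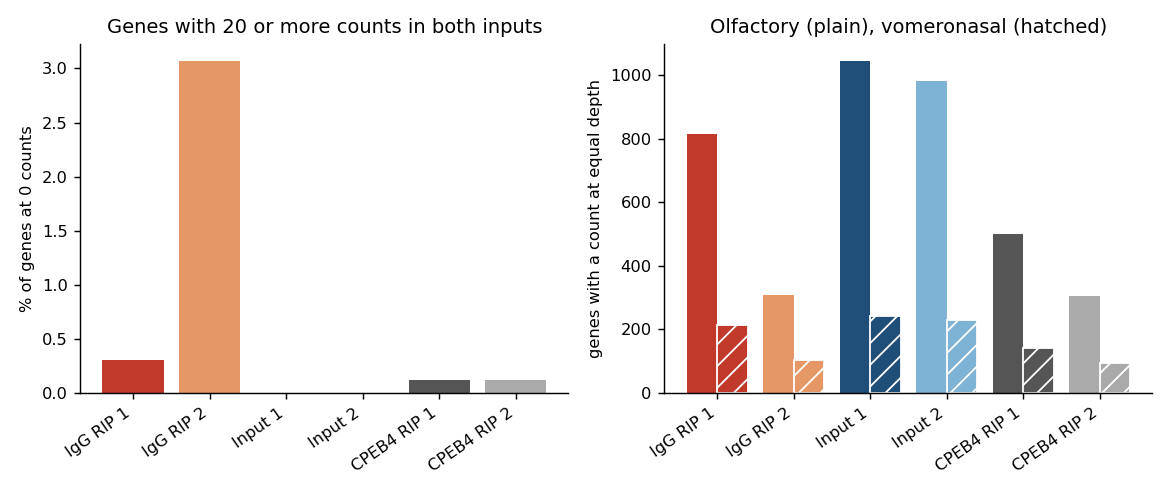
Left, the percentage of the 12628 genes with at least 20 counts in both inputs that were at 0 counts in each library (the inputs are at 0% by the choice of genes). Right, the number of olfactory (plain bars) and vomeronasal (hatched bars) receptor genes with a count after thinning to 9018323 counts; IgG RIP 2 stands at 3.07% and 308 genes and IgG RIP 1 at 0.301% and 815 genes.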

How the data were processed

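Per the submitters' processing notes, the authors used HISAT2, featureCounts and the mm10 build; the sources used here give no versions, annotation, strand setting or treatment of multiply matching reads. The authors deposited raw counts per gene and, separately, FPKM values. Genes passing filterByExpr (minimum count 10, minimum total 15) were fitted with edgeR 4.0.16 in R 4.3.3 (quasi-likelihood test, group as the only term, all 6 libraries, 3 residual degrees of freedom, two-sided, Benjamini-Hochberg, threshold 0.05). CPM were scaled by TMM, and the filter and the TMM factors used all 6 libraries. The deposited FPKM gave gene lengths and a limma alternative on log2(FPKM + 1). Genes at equal depth were computed by rarefaction. RefSeq symbols matched 16439 of the 18054 genes tested and gave positions and types. The reads carry no molecular identifiers, so depth and floors cover counting error only. The steps were tested on simulated data. The comparison, the 37 gene lists and the naming rule (the 12 widest passing changes each way, filled by smallest p, since none passed; of each list the most abundant members; the most abundant genes; gaps between the IgG RIP libraries; Cpeb4 and lineage genes) were chosen with earlier results of these data known. List ends and other genes were named after their values were seen, and not every gene the rule takes is printed. Of the 12 in each direction, 1 is not reported here.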

Additional observations from a re-analysis of the deposited data

How the results depend on the processing

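The count of genes past the edgeR test was 0 in each direction under DESeq2's size factors, library size alone, a mean count of at least 20, the 4 libraries alone, a test against a 2-fold change and a gene length offset. It was 287 higher and 170 lower with no low-count filter, 427 and 279 in DESeq2's Wald test, 2 and 6 in limma on log2(FPKM + 1), 1 and 2 with 0.1 in place of 1, 0 and 1 with no FPKM filter, and 1 and 0 after thinning. Leaving out a library gave 0 to 2301 higher and 0 to 4356 lower. Replicate numbers were not taken to pair the libraries, since their replicate differences over genes correlated at 0.0697 for input with IgG RIP, 0.133 for IgG RIP with CPEB4 RIP and -0.0160 for input with CPEB4 RIP. The fit with the replicate block called 18 genes higher and 7 lower, among them 9 of the 12 higher and 6 of the 12 lower genes taken for description and Actb (adjusted p 0.0209). Genes with both IgG RIP libraries above both inputs numbered 2050 at a mean of at least 10 CPM and 5493 to 7780 without a library, and those below 1434 and 5219 to 7814.

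The per-library 2-fold counts above and below were, for IgG RIP 1, 1024 and 1652 with 0.1 CPM added, 30 and 60 with 5 CPM, 806 and 935 against the input of the same number, and 43 and 108 at a mean of at least 10 CPM. For IgG RIP 2 they were 1425 and 4043, 237 and 253, 1528 above, and 284 and 244, with 539 above under library size alone. Genes at 0 with at least 20 input counts numbered 11 in IgG RIP 1 and 223 in IgG RIP 2 after thinning, and 0 and 64 at 50 input counts. These alternatives to the zero counts and to the separation of groups were chosen after seeing the data. Without a library in turn, the log2 fold change ranged from -0.087 to 0.35 for Gal, -0.65 to 0.077 for Neat1, -0.36 to 1.07 for Cpeb4 and -0.13 to 0.14 for Hnrnpk, which was -0.012 under library size alone. The other 60 genes tested singly kept their sign under every setting run for them. Of 21 list medians, 11 kept their sign under every setting run and 10 did not; the median moved by more than the spread of the IgG RIP libraries in 14 without IgG RIP 1, 14 without IgG RIP 2, 13 without Input 1 and 13 under library size alone, and its sign was opposite in 3, 5, 6 and 4.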
